A study of Danio rerio with 12 samples.

Results

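The 32 genes described here encode the enzymes of glycolysis, from hexokinase to pyruvate kinase, and the lactate dehydrogenases of the zebrafish heart. They were taken by gene name from the expression tables, and all 32 were found among the 50640 genes listed. Total RNA was isolated with Trizol from hearts of zebrafish, Danio rerio, aged 6, 12, 24 and 36 months and sequenced, with 3 libraries at each age and 12 in all. The labels give standard husbandry for all fish and no strain, genotype, sex or treatment, so age is the only factor known to separate the groups. The labels also do not say whether a library holds 1 heart or several, or whether replicates come from separate fish, so a p-value here speaks to the spread among these libraries and no further. In whole hearts, fewer cells of a type and less RNA per cell cannot be told apart.

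Glycolysis splits glucose into pyruvate in the cytosol and yields ATP without oxygen, and lactate dehydrogenase interconverts pyruvate and lactate while recycling NADH and NAD. The hexokinase and phosphofructokinase reactions are in effect one-way and are the classic points of control, whereas most other steps run in either direction. The adult heart of vertebrates draws most of its energy from fatty acids and lactate but keeps a high content of glycolytic enzymes, and zebrafish often hold a pair of genes (a and b) where mammals hold 1.

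Values are in FPKM, counts scaled by gene length and by a size for each library, so that levels of different genes can be compared. That size was not the plain sum of reads in genes. It was 10518500 against 9343585 reads in replicate 1 of 6 months, and 8298190 against 9006181 in replicate 2. Median-ratio size factors of the values were 1.01 to 1.02, so by that measure the libraries were already on a near-common scale. Each library held 7333060 to 11145869 reads in genes, and 1 read in a gene of 1 kilobase was worth 0.0878 to 0.136 FPKM. Ages were compared with limma on log2(FPKM + 1) over the 16223 genes with a mean of at least 1 FPKM, and a gene was called at a Benjamini-Hochberg adjusted p under 0.05 over all of them. A log2 difference is on this scale, which understates changes of genes with low levels. Replicate 1 of 6 months had a low level of gapdh (6766 FPKM, against 21917 and 21518 in the other libraries of that age), so tests of the members are given with and without it. Because that library was singled out by gapdh, a test of gapdh without it is not independent of the choice. Tests without it of other members that were far from their age group there cannot be taken as independent either.

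Between 6 and 36 months, hk1, the main hexokinase of these hearts, fell from 277 ± 61.1 to 149 ± 22.7 FPKM (SD, n = 3), and eno1a, a lowly expressed enolase, fell from 2.33 ± 0.514 to 1.003 ± 0.289 FPKM. These were 2 of the 23 glycolytic genes tested, or 8.7%, both lower at 36 months, and 8.25% of all genes tested were called in that comparison, so the share was near the background. In an F test across the 4 ages hk1 alone was called (4.35% of the 23, against 5.28% of all genes). None of the 23 was called in the other 5 comparisons by limma at an adjusted p under 0.05. Of all genes tested, 0.0185% were called at 12 compared with 6 months, 0.715% at 24 compared with 12 and 1.12% at 36 compared with 24. The percentage was 0.709% at 24 compared with 6 months and 3.14% at 36 compared with 12. In the same order, 4, 7, 8, 1 and 7 of the 23 had an unadjusted p under 0.05, where 9.45%, 14.5%, 16.7%, 15.5% and 22.2% of all genes passed. The median log2 difference of the 23 between 36 and 6 months was -0.19, with 14 below 0 and 9 above, beside 0.00 over all genes tested.

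Without replicate 1 of 6 months more of the 23 passed, and so did more of all genes. Between 36 and 6 months hk1, gpib and pfklb fell and hk2 rose, which is 4 of 23 or 17.4% against 12.9% of all genes, and eno1a was no longer called. Between 36 and 12 months hk1 fell while hk2 and aldoaa rose (3 of 23, or 13.0%, against 5.96%). No 6-month library enters these differences, and leaving it out changed only the shared spread. None of these genes was called in a fit of only those ages, where 143 of all 16223 genes were. Of 20 alternatives, hk1 was called there in 2, and hk2 and aldoaa in 1 each. Only gapdh was called at 24 months compared with 12 (lower, 1 of 23, background 1.52%). It was also the only call at 36 months compared with 24 (higher, background 2.46%) and at 24 months compared with 6 (lower, background 1.97%). No member was called for 12 against 6 months, where the background was 0.00616% and 9 of 23 had an unadjusted p under 0.05, as did 11.9% of all genes. The F test called gapdh, gpib, hk1 and hk2 (4 of 23, or 17.4%, against 10.2% of all genes). The calls of gapdh are not independent of the choice of the library left out. The other genes gained were also far from their age group in that library. It held 27.8% of the mean of replicates 2 and 3 for aldoaa, 50.1% for gpib, 52.0% for pfklb and 369% for hk2. Their calls without it cannot be taken as independent of the choice either.

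**Figure D1:**
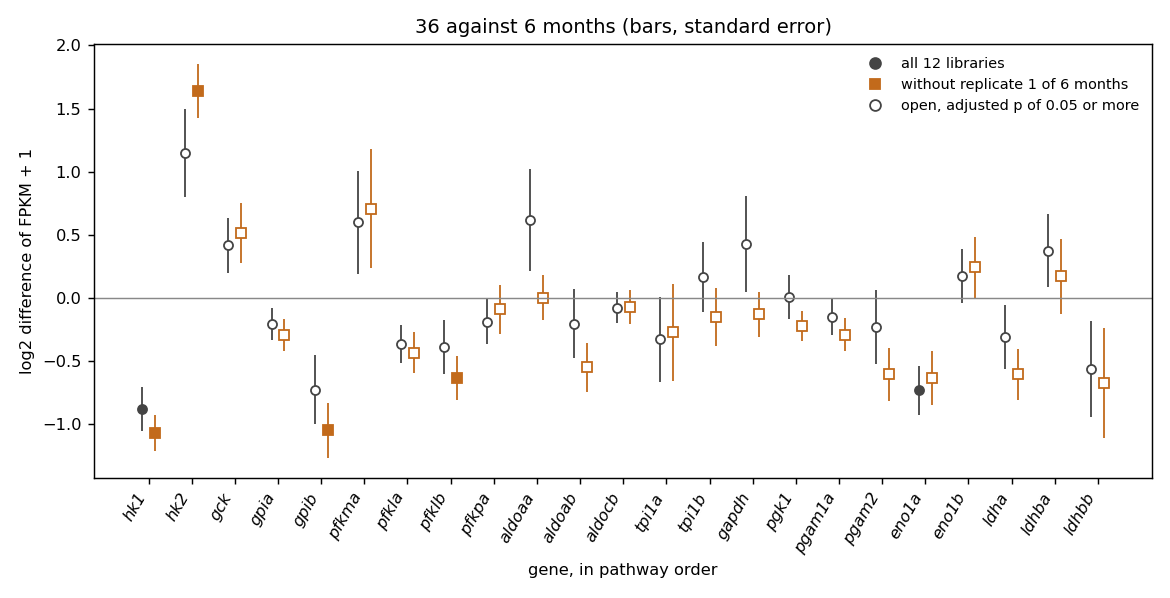
Log2 difference of FPKM + 1 between 36 and 6 months (y axis) for the 23 genes tested, in pathway order (x axis), with all 12 libraries (circles) and without replicate 1 of 6 months (squares); bars are standard errors and filled symbols have an adjusted p under 0.05. With all libraries only hk1 at -0.88 and eno1a at -0.73 are filled, and without the library hk1, hk2, gpib and pfklb are; aldoaa moves from 0.62 to 0.00 and gapdh from 0.43 to -0.13.

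Levels among the members spanned from 0 to 22596 FPKM. gapdh ranked between place 1 and place 3 of all genes in every library, and the 32 genes together held 2.51% to 5.56% of the summed FPKM. Below gapdh came ldhba (mean 2441 FPKM over 12 libraries), aldoaa (1597), aldoab (1507), ldha (574) and tpi1b (546). The spread between the highest and the lowest library was smallest for gpia (1.45-fold), aldocb (1.48-fold) and pgam1a (1.49-fold) and largest for ldhbb (7.8-fold), pfkma (6.31-fold) and gck (5.74-fold), all 3 of which were low. Leaving out replicate 1 of 6 months narrowed the spread of aldoaa from 4.06-fold to 1.95-fold, of gapdh from 3.34-fold to 2.52-fold and of pgk1 from 1.71-fold to 1.3-fold.

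**Figure D2:**
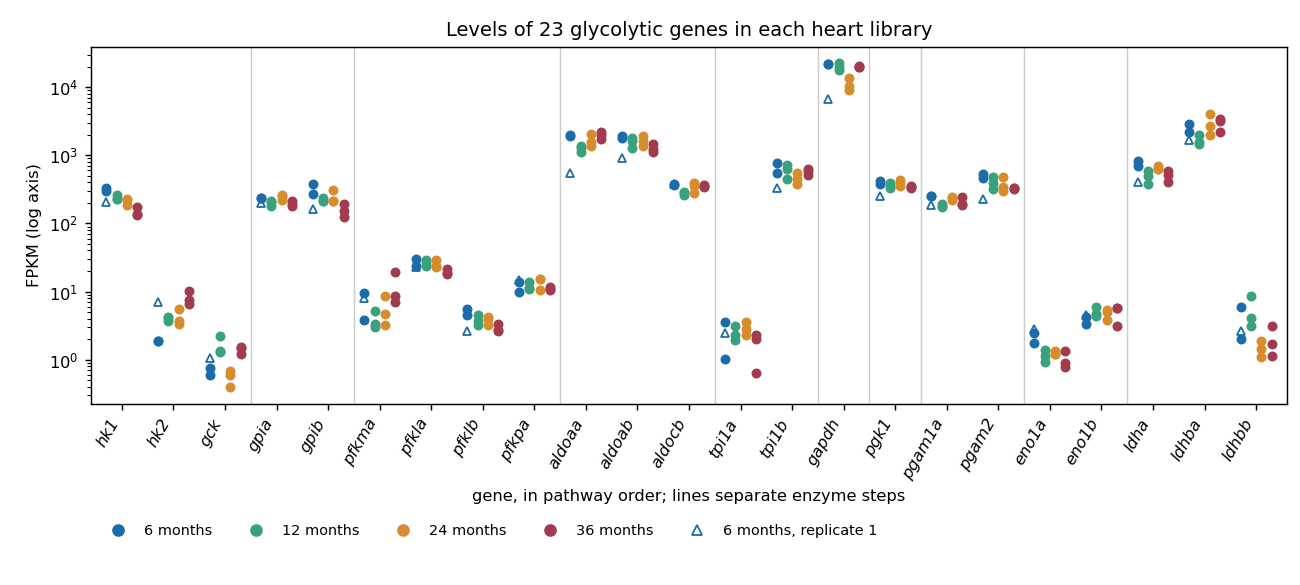
FPKM (y axis, log scale) of the 23 genes with a mean of at least 1 FPKM, in pathway order (x axis), 1 symbol per library coloured by age; the open triangle is replicate 1 of 6 months. gapdh is the highest of the 23 in every library, and the triangle is the lowest symbol of all 12 for aldoaa, aldoab, tpi1b, gapdh, pgk1 and pgam2.

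The other 9 members had a mean under 1 FPKM and were not tested. They were aldoca, gapdhs, pgam1b, eno2, eno3, pfkmb and all 3 pyruvate kinase genes, pkma, pkmb and pklr. In 8 of these 9, all but aldoca, the tables also hold a locus without a gene name that overlaps the member on the same strand. Such loci cover 100% of the span of pfkmb, pgam1b and pklr, 99.7% of eno3, 99.2% of gapdhs, 94.9% of pkmb, 82.0% of pkma and 66.5% of eno2. The loci were themselves listed at 0 in all libraries over pfkmb, gapdhs, pgam1b, eno2, eno3 and pklr, and reached at most 0.508 FPKM over pkma and 0.134 over pkmb. Among all protein-coding genes, 82.4% of the 7686 with such a locus on the same strand had a mean under 1 FPKM, against 52.5% of the 18057 without. How reads shared by overlapping genes were counted is not given in the sources used here, so a value near 0 in these members does not show that the gene was silent.

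Hexokinase traps glucose in the cell by phosphorylating it. hk1, the widely expressed form in mammals (ENSDARG00000039452, chromosome 13, 22842438 to 22877363, minus strand, GRCz11), was at 209, 326 and 298 FPKM in the libraries of 6 months and at 229.6, 258 and 229 at 12 months. At 24 months it was at 221, 228 and 185, and at 36 months at 133, 138 and 175. All 3 libraries of 36 months lay below each of the other 9, and replicate 1 of 6 months lay within the range of 12 and 24 months. The log2 difference between 36 and 6 months was -0.88 ± 0.18 (SE; limma adjusted p = 0.0166) and was -1.07 ± 0.15 (adjusted p = 0.00435) without that library. The call was lost without replicate 2 (adjusted p = 0.0548) or 3 (0.0555) of 6 months and without replicate 1 (0.0553) or 2 (0.0571) of 36 months, and in a fit of only those ages (0.0898). Between 36 and 12 months the log2 difference was -0.69 ± 0.18 with an adjusted p of 0.0602 by limma, and without replicate 1 of 6 months, which narrows the shared spread, the p was 0.0199. The F test across ages gave hk1 an adjusted p of 0.0484, or 0.0112 without replicate 1 of 6 months; leaving out any other single library gave 0.0572 to 0.139.

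hk2, the insulin-responsive form of mammalian muscle (ENSDARG00000101482, chromosome 5, 13369819 to 13507654, plus strand), was far lower. It was at 6.98, 1.90 and 1.88 FPKM at 6 months, at 4.23, 3.72 and 4.03 at 12 months, at 3.64, 5.61 and 3.30 at 24 months and at 6.61, 7.46 and 10.3 at 36 months. The values of 36 months lay above all others except that of replicate 1 of 6 months, which was 369% of the mean of the other libraries of its age. Between 36 and 6 months the log2 difference was 1.15 ± 0.35 (limma adjusted p = 0.0678), and 1.64 ± 0.22 (adjusted p = 0.00407) without that library. Between 36 and 12 months it was 0.85 ± 0.35 (adjusted p = 0.187) with all libraries and had an adjusted p of 0.0337 without replicate 1 of 6 months. These levels rest on 113 to 637 reads per library. An unnamed locus on the same strand, at up to 2.45 FPKM, covers 0.369% of the listed span of hk2. gck, glucokinase, which serves the liver and the pancreatic islet in mammals, stayed at 0.391 to 2.24 FPKM; its values of 24 months (0.391 to 0.689) lay below those of 12 months (1.28 to 2.24) with an adjusted p of 0.148 (0.112 without replicate 1 of 6 months).

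**Figure D3:**
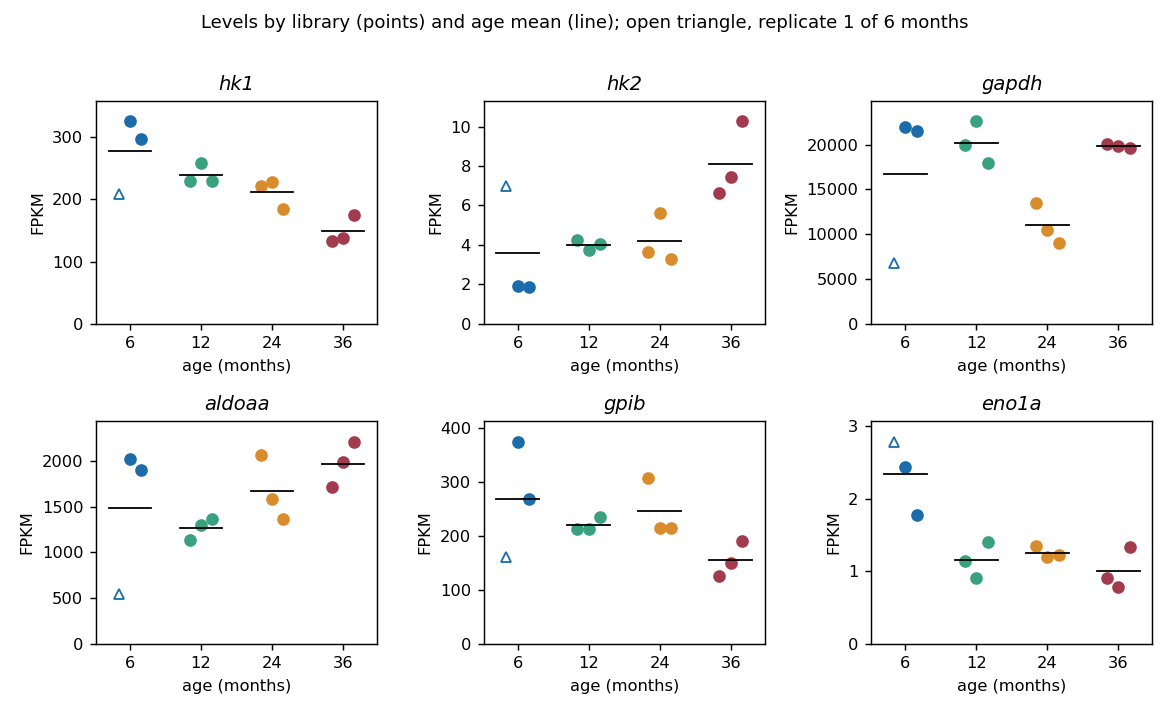
FPKM (y axis, from 0) by age in months (x axis) for 6 genes, 1 point per library with the age mean as a line and replicate 1 of 6 months as an open triangle. hk1 is lowest at 36 months (133 to 175), gapdh at 24 months (8975 to 13512) is below 12 and 36 months, and the triangle is far below its age group for gapdh, aldoaa and gpib and above it for hk2.

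Glucose-6-phosphate isomerase turns glucose-6-phosphate into fructose-6-phosphate, and both of its genes were expressed at like levels. gpib (ENSDARG00000103826, chromosome 18, 512830 to 1011132, plus strand) was at 161, 375 and 269 FPKM at 6 months and at 212, 212 and 236 at 12 months. It was at 307, 215 and 215 at 24 months and at 125, 150.2 and 189.6 at 36 months. The lowest 2 values were of 36 months, and replicate 1 of 6 months lay among that age. The log2 difference between 36 and 6 months was -0.73 ± 0.27 (limma adjusted p = 0.126), and -1.05 ± 0.22 (adjusted p = 0.0161) without that library. The listed span of gpib is wide and takes in 2 unnamed loci on the same strand that cover 0.604% and 0.513% of it, with levels up to 6.52 and 64.3 FPKM. The named gene nedd4a, on the same strand at 3.96 to 6.67 FPKM, covers 20.7% of it. Over the alternatives that kept every library of both ages, among them adding the unnamed loci, the log2 difference of gpib ran from -0.73 to -0.50. gpia lay between 179 and 259 FPKM in all 12 libraries, and no comparison called it.

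Phosphofructokinase commits the sugar to glycolysis. Its leading gene by level was pfkla, a liver-type form (ENSDARG00000060504, chromosome 9, 53084871 to 53138782, minus strand), at 22.9, 30.1 and 23.3 FPKM at 6 months and 29.4, 25.8 and 23.7 at 12 months. It was at 29.5, 23.4 and 22.6 at 24 months and at 18.4, 21.5 and 18.5 at 36 months. The 36-month values were the lowest 3, but the log2 difference against 6 months, -0.36 ± 0.15, had a limma adjusted p of 0.156 (0.106 without replicate 1 of 6 months). pfklb, its copy (ENSDARG00000099755, chromosome 11), was at 2.63, 5.58 and 4.52 FPKM at 6 months, 3.72, 4.45 and 3.24 at 12 months, 3.24, 3.96 and 4.16 at 24 months and 3.38, 2.61 and 2.70 at 36 months. Replicates 2 and 3 of 6 months held the highest values and lay above all of 36 months, whereas replicate 1 lay among those of 36 months. The log2 difference was -0.39 ± 0.21 (adjusted p = 0.273), and -0.63 ± 0.17 (adjusted p = 0.04) without replicate 1 of 6 months. The muscle-type pfkma lay between 3.01 and 19.0 FPKM and the platelet-type pfkpa between 9.94 and 15.4, and neither was called. An unnamed locus on the same strand, at up to 0.386 FPKM, covers 79.2% of pfkpa. The other muscle-type gene, pfkmb, was listed at 0 in all 12 libraries.

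Aldolase cleaves the 6-carbon sugar, and its muscle-type pair carried most of the transcript. aldoaa (ENSDARG00000011665, chromosome 3, 39425141 to 39435194, plus strand) was at 545, 2015 and 1898 FPKM at 6 months and at 1131, 1298 and 1362 at 12 months. It was at 2060.4, 1581 and 1368 at 24 months and at 1715, 1983 and 2210.1 at 36 months. The values of 36 months were all above those of 12 months, and replicate 1 of 6 months was the lowest library by far, at 27.8% of the mean of the other libraries of its age. The log2 difference between 36 and 12 months was 0.64 ± 0.41 (limma adjusted p = 0.383) in all libraries; without that library its SE was 0.16 and its adjusted p 0.0482. Between 36 and 6 months the difference of 0.62 ± 0.41 became 0.00 ± 0.18 without it. Its paralog aldoab had 908, 1914 and 1808 FPKM at 6 months and ranged from 1119.9 to 1921 at the later ages, with no call.

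The brain-type aldocb held 263 to 389 FPKM. Its level at 12 months (263 to 291) was below that of 6 months (369 to 379) in every library, a log2 difference of -0.44 ± 0.12 with a limma adjusted p of 0.271 (0.246 without replicate 1 of 6 months). Replicate 1 of 6 months, at 377 FPKM, lay within its age group in this gene. aldoca reached at most 0.205 FPKM. Triosephosphate isomerase interconverts the products of aldolase, and tpi1b (ENSDARG00000040988, chromosome 16, 12345437 to 12364683, plus strand) held 99.2% to 99.9% of its transcript. It was at 334, 761 and 546 FPKM at 6 months, 623, 718 and 445 at 12 months, 545, 379 and 453 at 24 months and 639, 515 and 596 at 36 months. These ages overlapped, 6 and 24 months only through replicate 1 of 6 months. The smallest adjusted p of its 6 comparisons and F test was 0.56, or 0.26 without replicate 1 of 6 months. tpi1a lay between 0.634 and 3.63 FPKM. An unnamed locus on the same strand, at up to 1.55 FPKM, covers 100% of tpi1a, so its low level and the share of tpi1b depend on how shared reads were counted.

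Glyceraldehyde-3-phosphate dehydrogenase makes the NADH of glycolysis, and gapdh is widely used as a reference gene in expression assays. gapdh (ENSDARG00000043457, chromosome 16, 17284687 to 17292143, minus strand) was at 6766, 21917 and 21518 FPKM at 6 months and at 19987, 22596 and 17938 at 12 months. It was at 13512, 10427 and 8975 at 24 months and at 20108, 19809 and 19603 at 36 months. All 3 libraries of 24 months lay below every library of 12 and 36 months and above replicate 1 of 6 months. The 36-month libraries differed by an SD of 254 FPKM only, against 2317 at 24 months and 2335 at 12 months.

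With all 12 libraries, gapdh at 24 against 12 months gave a log2 difference of -0.89 ± 0.38 (limma adjusted p = 0.312), and 36 against 24 months gave 0.88 ± 0.38 (limma adjusted p = 0.28). Without replicate 1 of 6 months the differences were the same and the SE was 0.16, with adjusted p of 0.0308 and 0.0274. Fits of only the ages compared, which do not use the 6-month libraries at all, gave adjusted p of 0.126 and 0.114. For 24 against 6 months the log2 difference was -0.45 ± 0.38 (adjusted p = 0.628) with all libraries and -1.01 ± 0.18 (adjusted p = 0.0279) without that library.

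gapdh alone held 50.6% to 73.3% of the summed FPKM of the 32 genes. The ratio of gapdh to the sum of the other members was 1.02 to 1.32 at 24 months, 2.58 to 2.75 at 12 months and 2.01 to 2.47 at 36 months. At 6 months it was 1.22 in replicate 1 and 2.15 and 2.09 in replicates 2 and 3. The sum of the other members at 24 months, 7915 to 11609 FPKM, overlapped with that of the other ages (6945 to 8403 at 12 months and 8145 to 9743 at 36 months). Markers of other cells differed between the same libraries. The summed FPKM of 10 macrophage and granulocyte markers was 488 to 1497 at 24 months, 232 to 393 at 12 months and 187 to 908 at 36 months, led at 24 months by the lysozyme gene lyz, with marco at 0 in all libraries. The summed erythrocyte markers were 1548 to 3405 at 24 months, 6224 to 7256 at 12 months and 3349 to 4644 at 36 months, mostly hbba2, with hbaa1 at 0. Their part in the result was not tested. gapdhs, the other gene of this step, lay between 0.279 and 1.70 FPKM.

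The later steps of the pathway yield the ATP. Phosphoglycerate kinase, pgk1 (ENSDARG00000054191, chromosome 21, 37761018 to 37776965, plus strand), was at 249.9, 419 and 385 FPKM at 6 months, 355, 388 and 328 at 12 months, 427, 351 and 393 at 24 months and 333, 346 and 356 at 36 months. Apart from replicate 1 of 6 months these values spanned 1.3-fold, and the ages overlapped. Phosphoglycerate mutase was carried by the muscle-type pgam2 and by pgam1a, which lay between 172 and 256 FPKM; pgam1b was at most 0.174.

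pgam2 (ENSDARG00000057571, chromosome 21, 18965041 to 18969995, minus strand) was at 228, 460.0 and 537 FPKM at 6 months, 395, 475 and 320.3 at 12 months, 479, 296 and 341 at 24 months and 334, 326 and 319.7 at 36 months. The 36-month libraries stood close together and overlapped with each earlier age. The log2 difference between 36 and 6 months was -0.23 ± 0.29 (limma adjusted p = 0.656), or -0.60 ± 0.21 (adjusted p = 0.0863) without replicate 1 of 6 months. The ribosomal protein gene rpl17, at 826 to 1152 FPKM, covers pgam2 on the opposite strand, and whether counting used strand is not given in the sources used here.

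Enolase transcripts were scarce in these tables. eno1b (ENSDARG00000013750, chromosome 6, 40664167 to 40671870, plus strand) was at 4.52, 3.39 and 4.21 FPKM at 6 months, 4.72, 4.30 and 5.93 at 12 months, 5.40, 5.05 and 3.77 at 24 months and 5.66, 3.08 and 5.68 at 36 months, with overlap between the ages. The overlap of 6 and 12 months rested on replicate 1 of 6 months. eno1a (ENSDARG00000022456, chromosome 23, 22729926 to 22751447, plus strand) was at 2.79, 2.44 and 1.77 FPKM at 6 months, 1.15, 0.911 and 1.41 at 12 months, 1.35, 1.19 and 1.22 at 24 months and 0.902, 0.778 and 1.33 at 36 months. Every 6-month library lay above every later one, replicate 1 included.

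For eno1a the log2 difference between 36 and 6 months was -0.73 ± 0.19 (limma adjusted p = 0.0432). It had an adjusted p of 0.0779 without replicate 1 of 6 months, 0.0457 without replicate 3 of 12 months and 0.052 to 0.122 without any other single library. The values rest on 19 to 84 reads per library, and an unnamed locus listed at 0 throughout covers 98.8% of the gene. eno2, the neuronal form in mammals, and eno3, the muscle form, lay at or below 0.782 and 0.999 FPKM; eno3 is also overlapped on its strand by eif4e2rs1 and dlg4b. Of the pyruvate kinases, which form pyruvate and ATP, the highest was pkma at 0.105, 0.233 and 0.459 FPKM at 6 months, 0.540, 0.283 and 0.219 at 12 months, 0.226, 0.124 and 0.286 at 24 months and 0.377, 0.247 and 0.192 at 36 months. pkmb reached at most 0.0535 FPKM and pklr was listed at 0 in every library, so no gene of the last step exceeded 0.540 FPKM.

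Lactate dehydrogenase was mostly of the heart type. ldhba (ENSDARG00000019644, chromosome 4, 16840128 to 16847030, minus strand) was at 1662, 2202 and 2925 FPKM at 6 months and at 1558, 2004 and 1481 at 12 months. It was at 4033, 1982 and 2729 at 24 months and at 2202, 3362 and 3151 at 36 months. The 36-month values were all above those of 12 months, with a log2 difference of 0.78 ± 0.29 and a limma adjusted p of 0.151 (0.103 without replicate 1 of 6 months), and the other ages overlapped. The overlap of 6 and 12 months rested on replicate 1 of 6 months. The muscle-type ldha was at 411, 816 and 706 FPKM at 6 months, 381, 502 and 593 at 12 months, 696, 628 and 633 at 24 months and 406, 512 and 597 at 36 months. Its difference between 36 and 6 months was -0.31 ± 0.25 (adjusted p = 0.469), or -0.60 ± 0.20 (adjusted p = 0.0752) without replicate 1 of 6 months. ldhbb lay between 1.09 and 8.48 FPKM; its values of 24 months (1.09 to 1.89) were all below those of 12 months (3.10 to 8.48), with an adjusted p of 0.164 (0.139 without replicate 1 of 6 months).

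Where a step has more than 1 gene with a mean of at least 1 FPKM, the share of the step's summed FPKM held by its leading gene does not depend on the library's scale. The sum takes members such as pfkmb, eno2 and eno3 as listed, although their values near 0 do not show that they were silent. It also takes tpi1a, pfkpa, hk2, eno1a and gpib as listed, which unnamed loci overlap on the same strand. There were 8 such steps, tested by an exact permutation test over all 369600 arrangements of the libraries into ages, with adjustment over the 8. hk1 held 96.3%, 99.2% and 99.1% of the hexokinase transcript at 6 months, 97.3% to 98.1% at 12 months, 97.3% to 98.2% at 24 months and 93.8% to 94.3% at 36 months. The 36-month shares lay below all others. The exact permutation p was 0.0146 (adjusted 0.117), and without replicate 1 of 6 months, over 92400 arrangements, it was 0.000519 (adjusted 0.00416). That library was chosen by the level of a member, so the second p cannot be taken as independent of the choice. None of the other 7 steps passed, with adjusted p of 0.145 to 0.338 in all libraries by the same exact test and 0.121 to 0.227 without replicate 1 of 6 months. With unnamed overlapping loci added to the members, the exact permutation p of the gpib share was 0.659, against 0.229 as listed.

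The following shares did not pass the test. The share of aldoaa in the aldolases was 48.5% to 57.7% at 36 months and 29.8% to 47.7% at the earlier ages, without overlap (exact permutation p = 0.092, adjusted 0.245, or 0.121 without replicate 1 of 6 months). eno1b held 52.1% to 60.8% of the enolase transcript at 6 months and 59.9% to 71.6% later (exact p = 0.0362, adjusted 0.145, or 0.166 without that library). ldhba held 84.0% to 86.7% of the lactate dehydrogenase transcript at 36 months and 71.3% to 85.3% before (exact p = 0.152, adjusted 0.266, or 0.215 without that library).

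**Figure D4:**
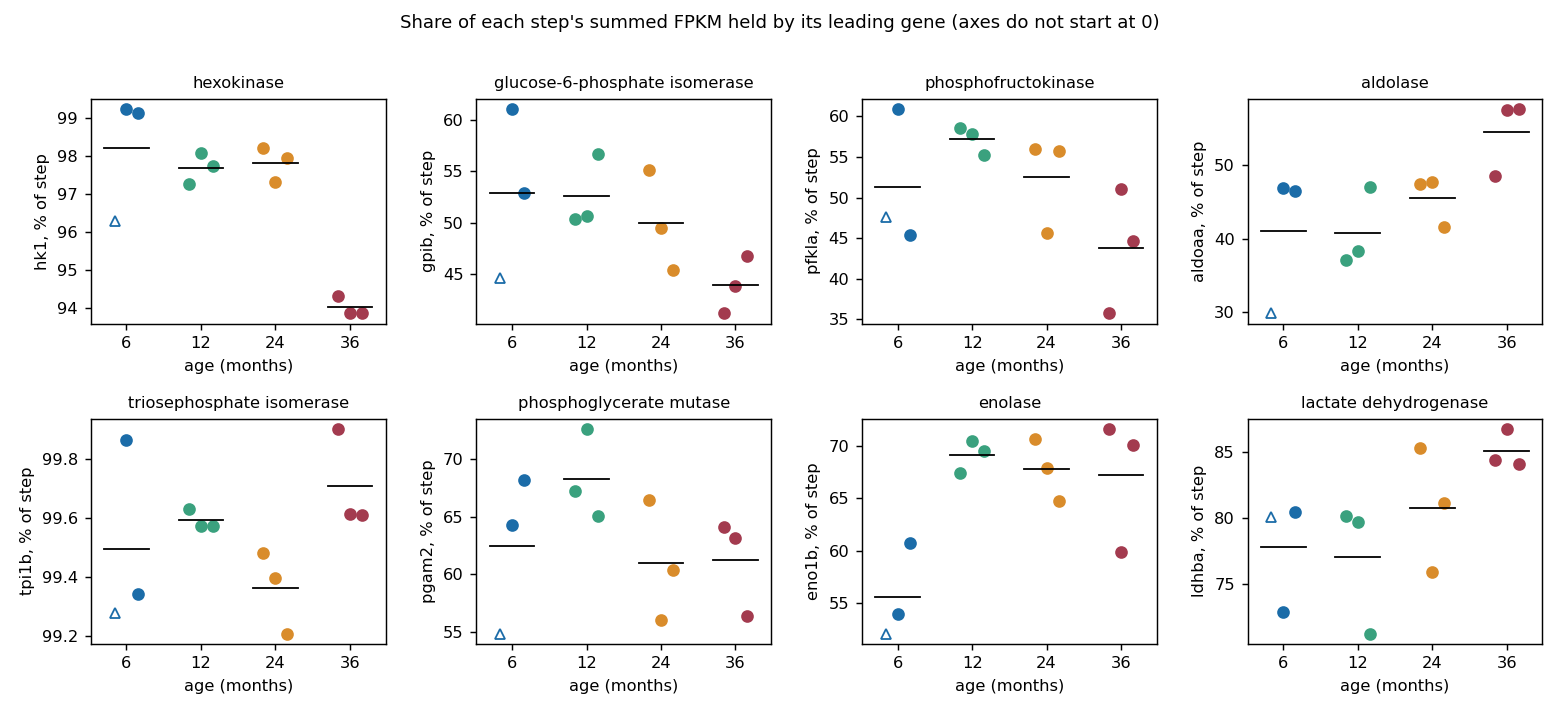
Percent of a step's summed FPKM held by its leading gene (y axes, not from 0) by age in months (x axes) for 8 enzyme steps, 1 point per library with age means as lines and replicate 1 of 6 months as an open triangle. The share of hk1 at 36 months (93.8% to 94.3%) is below every other library, and those of aldoaa at 36 months (48.5% to 57.7%) are above every other library.

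Replicate 1 of 6 months was low in most, not all, of the abundant members. As a percentage of the mean of replicates 2 and 3, it stood at 27.8 for aldoaa, 31.2 for gapdh, 45.8 for pgam2, 48.8 for aldoab, 50.1 for gpib, 51.1 for tpi1b and 54.1 for ldha. It was at 62.2 for pgk1, 64.8 for ldhba, 67.0 for hk1, 74.1 for pgam1a and 83.5 for gpia. aldocb, at 101, was not below that mean. Nor were the less abundant genes tpi1a (105), pfkma (119), eno1b (119), pfkpa (123), eno1a (132), gck (156) and hk2 (369). The less abundant pfklb (52.0), ldhbb (66.9) and pfkla (85.6) were below it. This library was the lowest of all 12 for 6 of the 23 genes (26.1%), against 14.6% of all genes tested. Those 6 include gapdh, by which the library was singled out, so the 26.1% is not independent of the choice.

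**Figure D5:**
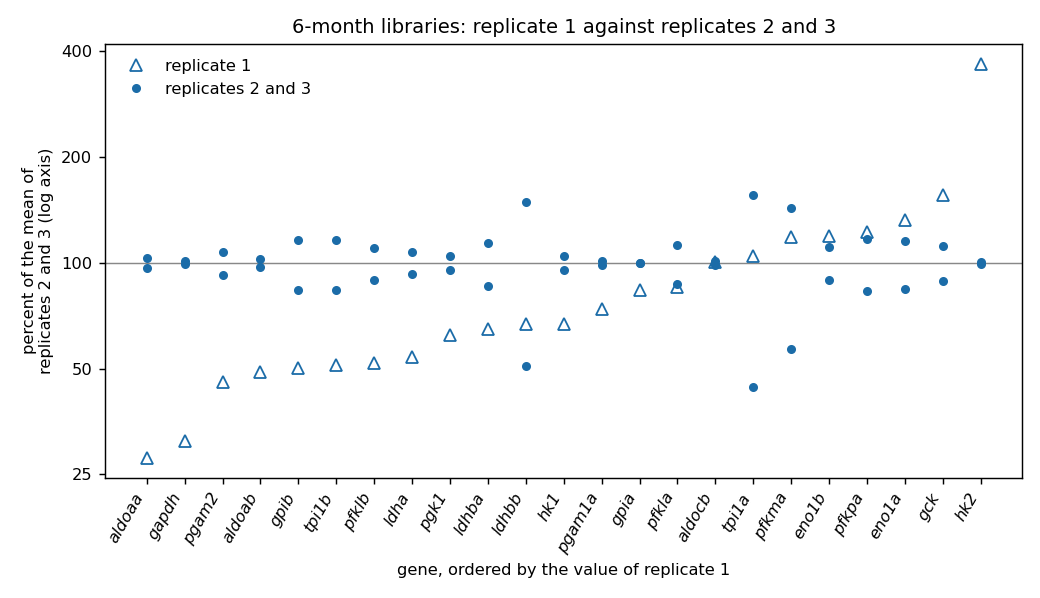
Level of each of the 23 genes in the 3 libraries of 6 months as a percent of the mean of replicates 2 and 3 (y axis, log scale), ordered by replicate 1 (x axis); triangles are replicate 1 and points the other replicates. Replicate 1 runs from 27.8% for aldoaa and 31.2% for gapdh to 369% for hk2, and is near 100% for aldocb.

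The same library differed in markers of several cell types. ckma, a muscle creatine kinase and the highest of the fast muscle markers, was at 969.7 FPKM there and at 4762 and 4080.1 in replicates 2 and 3. The fast muscle sum was 2026 FPKM against 5498 and 4658, a difference that lay in ckma. The other fast muscle markers together stood higher in replicate 1 than in replicates 2 and 3. The summed hepatocyte markers were 315 FPKM against 11.2 and 20.2. The highest hepatocyte sum, 1026, was in replicate 2 of 12 months, whose gapdh was at 22596. The macrophage and granulocyte sum was 293 against 75.3 and 77.1, the erythrocyte sum 6061 against 2900.0 and 3074, and the endothelial sum 183 against 308 and 375. Their part in the low glycolytic values was not tested.

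The heart label was checked on cardiomyocyte markers, whose sum over 19 genes was 5079 to 11677 FPKM. It was carried by nppa (3120 to 7022), myh6 (658 to 3153), cmlc1 (473 to 1489) and, lower, the cardiac factor nkx2.5 (90.0 to 169), and myl7 was at 24.7 to 190.3. vmhc and tnnt2a, which define ventricular and general cardiac muscle, stayed at or under 0.905 and 0.346 FPKM. The fast skeletal muscle sum of 41 genes, 2026 to 5498 FPKM, was led by ckma (969.7 to 4762), while tnnt3b and tnni2a.4 stayed at or under 0.222 and 0.146. In replicate 2 of 36 months actc1b stood at 65.9 and mylpfa at 41.3 FPKM, against at most 2.94 and 2.06 in the other libraries. The slow muscle sum was 749 to 4297, mostly tnnc1b, with smyhc1 at most 0.158. Neuron and brain markers summed to 11.03 to 19.997 FPKM and smooth muscle markers, mostly tagln, to 241 to 674, with myh11a and cnn1b at 0. Endothelial markers summed to 183 to 375 FPKM, with cdh5 at 0. As for the members, a value near 0 does not show that a marker gene was silent. The low markers therefore do not show that a cell type was missing.

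Marker genes were tested in the same way, and 8.25% of all genes were called by limma between 36 and 6 months. Among fast muscle markers ckmb was higher (1 of 16 tested), and among cardiomyocyte markers nkx2.5 and myl4 were lower (2 of 10). kdr was higher (1 of 4 endothelial markers), and of 4 smooth muscle markers mylkb was higher and lmod1b lower. None of the 4 slow muscle, 10 hepatocyte, 5 erythrocyte, 6 neuron or 6 macrophage and granulocyte markers tested was called there with all libraries. Without replicate 1 of 6 months, 12.9% of all genes were called between 36 and 6 months. There 4 of the 6 macrophage and granulocyte markers, led by coro1a, and the erythrocyte marker hbae5 were higher, and the neuron marker map2 was lower. myl4 and mylkb were no longer called. In the other comparisons with all 12 libraries lyz was higher at 24 than at 6 months (1 of 6 tested, 0.709% of all genes called). With all 12 libraries lmod1b, 1 of 4 tested, was lower at 12 than at 6 months (0.0185% of all genes called). It was higher at 24 than at 12 months (0.715%). Without replicate 1 of 6 months lmod1b was not called at 12 against 6 months. At 24 against 12 months hbba2 was then lower and mpx, tnni1b and lmod1b higher (1.52% of all genes called). At 24 against 6 months mpx and lyz were higher (1.97%). At 36 against 12 months ckmb and coro1a were higher and nppa lower (5.96%).

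The genes around the pathway were examined in 7 lists with 62 genes tested: glucose transporters, glycogen metabolism, regulators of phosphofructokinase and hexokinase, pyruvate and lactate exit, NADH shuttles, the pentose phosphate pathway, and other glycolytic and gluconeogenic enzymes. Between 36 and 6 months 3 were higher and 4 lower at a limma adjusted p under 0.05, where 8.25% of all genes tested were called. Between 36 and 12 months, with 3.14% of all genes called, 3 were higher and 1 lower, and between 24 and 12 months 1 was higher (0.715%). The other 3 comparisons called none. Of all genes, 0.0185% were called at 12 against 6 months, 1.12% at 36 against 24 and 0.709% at 24 against 6. None of the 6 glucose transporters, 14 glycogen genes or 4 regulators was called in any of the 6 comparisons with all 12 libraries.

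In the pyruvate and lactate list, 2 of 17 genes rose and 1 fell between 6 and 36 months, where 8.25% of all genes tested were called. pdhx, the binding protein of the pyruvate dehydrogenase complex, rose from 3.34 ± 0.656 to 10.9 ± 4.56 FPKM (log2 1.40 ± 0.24, limma adjusted p = 0.0094). pcxa, pyruvate carboxylase, rose from 6.43 ± 0.507 to 9.71 ± 0.885 (0.53 ± 0.13, limma adjusted p = 0.0327). slc16a7, a monocarboxylate transporter, fell from 8.53 ± 2.45 to 3.37 ± 1.38 (-1.15 ± 0.26, limma adjusted p = 0.0252). It was at 5.93, 10.8 and 8.85 FPKM at 6 months and at 4.40, 3.90 and 1.79 at 36 months, so the ages did not overlap. pdhx carries an unnamed locus on its strand.

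In the pentose phosphate list taldo1, transaldolase, rose from 92.9 ± 7.88 to 160.3 ± 20.8 FPKM (log2 0.78 ± 0.14, limma adjusted p = 0.0127), and it too is overlapped by an unnamed locus. pgls, 6-phosphogluconolactonase, fell from 5.05 ± 2.54 to 1.89 ± 0.614 (-1.01 ± 0.27, limma adjusted p = 0.0466). Of the 8 shuttle genes tested gpd1l, a relative of glycerol-3-phosphate dehydrogenase, fell from 4.53 ± 1.25 to 2.12 ± 0.234 (-0.81 ± 0.19, limma adjusted p = 0.031). tigarb, whose mammalian counterpart lowers fructose-2,6-bisphosphate and so restrains phosphofructokinase, fell from 34.6 ± 5.97 to 19.7 ± 1.46 FPKM (-0.77 ± 0.17, limma adjusted p = 0.0253). These were 2 of 6 pentose phosphate genes, 1 of 8 shuttle genes and 1 of 7 other enzymes tested, beside 8.25% of all genes.

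Without replicate 1 of 6 months, 5 of the 62 were higher and 8 lower between 36 and 6 months, where 12.9% of all genes were called. Between 36 and 12 months 3 were higher and 4 lower (5.96% of all genes called), and between 36 and 24 months 1 was higher and 1 lower (2.46%). Between 24 and 12 months 1 was higher (1.52%), and between 24 and 6 months 1 was lower (1.97%). None was called between 12 and 6 months (0.00616%). pgls and gpd1l were no longer called between 36 and 6 months. The glucose transporter list gained slc2a13b (0.66 ± 0.16, limma adjusted p = 0.0279) and the regulators gained pfkfb4b (0.73 ± 0.21, limma adjusted p = 0.0451), both higher. The list of other enzymes gained ldhd, which was lower (-0.64 ± 0.13, limma adjusted p = 0.0143). The additions also included 3 glycogen genes, all lower, led by gys1, the muscle-type glycogen synthase (-0.69 ± 0.12, limma adjusted p = 0.00772), which had 41.7 FPKM in replicate 1 of 6 months against 98.6 and 81.2 in replicates 2 and 3 and 53.3 to 57.0 at 36 months.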

How the data were processed

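FPKM values were deposited by the authors in 4 tables of 50640 genes, 1 column per library, with gene coordinates; 15524 of these are loci without a name. Per the submitters' processing notes, CASAVA 1.8 called bases and HISAT2 2.0.5 aligned reads to GRCz11. The counting tool, its use of strand, the annotation release and the assembly of unnamed loci are not given in the sources used here. FPKM times gene length gave whole reads within 0.01 read for 100% of the values, and this gave the reads per library.

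Members were matched by gene name. Genes with a mean of at least 1 FPKM over 12 libraries (16223) were tested with limma 3.58.1 in R 4.3.3 on log2(FPKM + 1), with a pseudocount of 1, 4 age means, 8 residual degrees of freedom, a mean-variance trend, two-sided p and Benjamini-Hochberg adjustment over all genes tested. The model was tested on simulated data. Isozyme shares and tables were computed in Python 3.11.15 with numpy 2.4.6 and pandas 2.3.3, figures with matplotlib 3.10.9. Per-library values are given for members called in any test with all libraries, for the leading gene of each step and, chosen after their values were seen, for hk2, gpib, pfklb and ldha. Of the 16 other gene lists, only some of the called genes are named, at most 3 per list and comparison. Members and lists were chosen with earlier results of these data known. Whether replicate numbers mark a batch is not given in the labels. Over 18 pairs of same-numbered libraries the correlation of deviations from age means was -0.154 to 0.106, above 0.1 in 1 pair. Alternatives were another pseudocount, no filter, median-ratio and quantile scaling, a replicate block, fits of only the ages compared, voom on the recovered reads, unnamed overlapping loci added to the member, and leaving out each library.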

Additional observations from a re-analysis of the deposited data

How the results depend on the processing

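No direction of a called member turned under any alternative run, and genes outside the members were not compared in this way. The 2 members called for 36 against 6 months became 1 with no filter on low values (hk1), 1 with a replicate block (hk1) and 0 in a fit of only those ages. Over all genes in that comparison, 1338 of 16223 were called on the deposited scale and 889 of 39378 with no filter. The block called 885 of 16223, and the fit of only those ages called 278. The 1 member of the F test across ages became 0 with no filter, 0 with a replicate block, 0 with voom on recovered reads and 2 with quantile normalization (gapdh and hk1). Over all genes the F test called 857 of 16223 on the deposited scale and 433 of 39378 with no filter. It called 354 with the block, 706 with voom and 879 with quantile normalization. Quantile normalization also called 1 member for 24 against 12 months (gapdh), 1 for 36 against 24 months (gapdh) and 1 for 36 against 12 months (hk1), where the deposited scale gave 0. Over all 16223 genes it called 146, 185 and 535 in these comparisons, against 116, 181 and 510 on the deposited scale. The other counts under these settings, a pseudocount of 0.1, median-ratio scaling and unnamed loci added were as reported. hk1 has no such locus on its strand and that of eno1a was listed at 0 throughout, so adding loci left their values unchanged. The labels do not say whether replicate numbers mark a batch, and why calls were lost under the block was not tested.

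Leaving out each library in turn gave 0 to 4 members for 36 against 6 months, 0 to 4 for the F test and 0 to 3 for 36 against 12 months. It gave 0 to 1 for 24 against 12, 36 against 24 and 24 against 6 months, and 0 for 12 against 6 months. Each of the highest member counts came without replicate 1 of 6 months. Over all 16223 genes the same fits called 479 to 2088 for 36 against 6 months and 310 to 1653 for the F test. They called 96 to 967 for 36 against 12 months and 1 to 246 for 24 against 12 months. For 36 against 24 months they called 37 to 399, for 24 against 6 months 20 to 320 and for 12 against 6 months 0 to 30. The adjusted p of the hexokinase share ran from 0.00416 (without that library) to 0.198, and was 0.119 with unnamed loci added. hk1 was called for 36 against 6 months in 15 of 20 alternatives (adjusted p 0.00435 to 0.0898, limma), and eno1a in 6 of 20 (0.0397 to 0.136). For both genes these counts include added loci, which left their values unchanged, and median-ratio scaling, whose factors were 1.01 to 1.02. Those runs nearly repeat the main fit and add no support to the calls. hk2, gpib and pfklb were each called there in 1 of 20, the fit without replicate 1 of 6 months. Some tested members rest on few reads per library: tpi1a on 6 to 45, gck on 10 to 57, ldhbb on 15 to 133 and eno1a on 19 to 84.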
